A study of Mus musculus with 11 samples.

Results

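Aortas of treated Mpst knockout mice were compared with aortas of untreated wild-type mice on chow, across all genes, by RNA sequencing. The comparison uses 7 of the 11 libraries of the series, chosen by their labels: 3 libraries labelled MPST KO_HFD_LNAME and 4 labelled WT_CD. The MPST KO_HFD_LNAME libraries came from Mpst knockout mice that ate a diet with 45% of its calories from fat for 15 weeks and were then given L-NAME, which blocks the synthases of nitric oxide (NO), for 5 more weeks. The WT_HFD_LNAME group, 4 libraries from wild-type mice with the same diet and inhibitor, is given beside them. The WT_CD libraries came from wild-type mice on chow with 10% of its calories from fat, for which the labels state 15 weeks. The wild-type strain is C57BL6/J in the labels. The treated mice were 6 to 7 weeks old when put on the fat diet; the labels state no age for WT_CD. How the Mpst allele was made, and the dose of L-NAME, are not given in the sources used here. Genotype, diet and inhibitor change together between MPST KO_HFD_LNAME and WT_CD, and possibly age, so their shares in a difference cannot be told apart in this comparison. The labels do not tell whether every library is its own animal, and p-values therefore describe the spread among these libraries, which may be technical.

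MPST (mercaptopyruvate sulfurtransferase) takes sulfur from 3-mercaptopyruvate and passes it on as hydrogen sulfide or as persulfides on proteins. In blood vessels hydrogen sulfide, like NO, is known for relaxing smooth muscle and for restraining the adhesion of leukocytes to endothelium. NF-kB, a transcription factor switched on by inflammatory signals, drives genes of adhesion molecules and cytokines in the vessel wall, and it also drives some of its own inhibitors.

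The libraries held 11970995 to 15340697 counts in MPST KO_HFD_LNAME, 11562151 to 13757096 in WT_HFD_LNAME and 8665968 to 13300136 in WT_CD. Values are CPM, counts scaled to a common library size with TMM factors. The share of counts on Rn45s, a precursor of ribosomal RNA, was 0.815% to 1.34% in MPST KO_HFD_LNAME, 1.25% to 2.98% in WT_HFD_LNAME and 0.855% to 17.4% in WT_CD. Smooth muscle defined all groups: Acta2, smooth muscle actin, ran from 8906 to 12127 CPM in MPST KO_HFD_LNAME and from 5613 to 13645 CPM in WT_CD. Although the vessels were cleared of the fat around them, fat RNA was present in every library, since Adipoq, the adipocyte hormone adiponectin, ran from 369 to 507 CPM in MPST KO_HFD_LNAME and from 37.4 to 875 CPM in WT_CD.

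Of 27179 genes, 14303 had enough counts to be tested. A gene was called where its adjusted p in edgeR's quasi-likelihood test was under 0.05. Between MPST KO_HFD_LNAME and WT_CD, 45 genes were called, 0.315% of those tested. Of these, 41 were higher in MPST KO_HFD_LNAME (0.287%) and 4 were lower (0.028%). The higher genes included an inhibitor of NF-kB (Tnip1), leukocyte genes (Itgax, Lck, Cd8a, Igkc), genes of fat tissue (Mest, Lep, Sfrp5), the clock gene Bmal1 and the endothelial transcription factor Sox17. The lower genes were Mpst, Itih4, Socs2 and Angptl2. Among all tested genes the median log2 fold change was -0.04, with 6339 above 0 and 7964 below. At an unadjusted p under 0.05 there were 1902 genes, and 25 of the 45 called genes had an adjusted p between 0.04 and 0.05.

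**Figure D1:**
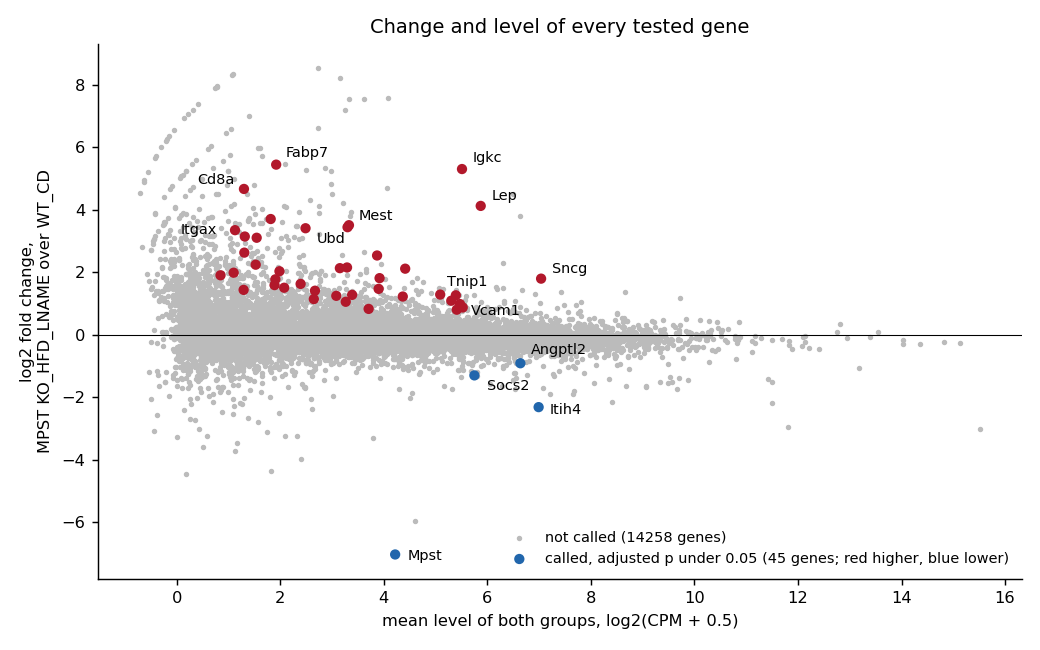
Log2 fold change of MPST KO_HFD_LNAME over WT_CD (vertical) against mean level as log2(CPM + 0.5) (horizontal), 1 point per tested gene. The 45 called genes are coloured (41 higher, 4 lower) and some are named; many low-level genes with larger fold changes were not called.

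Most of these calls sit close to the threshold and depend on the libraries in the fit. Mpst, Tnip1, Lhfpl2 and Mest were called whichever single library was left out. Sncg was lost without MPST KO_HFD_LNAME 2 or WT_CD 2, and Gpm6a was lost without those or WT_CD 4. Of the 45 genes, 6 were still called without MPST KO_HFD_LNAME 1, 4 without MPST KO_HFD_LNAME 2 and 14 without MPST KO_HFD_LNAME 3. Leaving out a WT_HFD_LNAME library, which enters only the estimate of spread and the filter, left 8 of them called without WT_HFD_LNAME 1, 16 without WT_HFD_LNAME 2, 45 without WT_HFD_LNAME 3 and 21 without WT_HFD_LNAME 4. Without a chow library, 11 were still called without WT_CD 1, 4 without WT_CD 2, 38 without WT_CD 3 and 5 without WT_CD 4; 4 were called without both WT_CD 1 and 2, the libraries with the largest Rn45s share. A fit of the 7 compared libraries alone called 3 genes, and DESeq2 called 567, which included all 45. Each of the 45 genes kept its direction in every alternative run. For all 45 the knockout and chow libraries did not overlap in CPM, so these runs could hardly change a direction.

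Mpst itself was almost absent from the knockout libraries (chr15:78406712-78414015 in GRCm38.p6). It had 0.231, 0.283 and 0.275 CPM in MPST KO_HFD_LNAME 1 to 3, against 25.6, 31.0, 36.3 and 25.8 CPM in WT_HFD_LNAME 1 to 4 and 36.4, 26.5, 44.1 and 37.2 CPM in WT_CD 1 to 4. The knockout libraries matched their label in every case. Relative to WT_CD this was a log2 fold change of -7.04 (SE 0.28, adjusted p = 6.67e-07); that of WT_HFD_LNAME over WT_CD was -0.28 (adjusted p = 0.448). A predicted gene, Gm52185, overlaps Mpst. Within 2 Mb on either side of Mpst, 95 genes were tested and Mpst alone was called; the next lowest adjusted p there was 0.0988, and the median log2 fold change of the others was -0.06.

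The other genes of sulfide and sulfur amino acid metabolism gave no further call in edgeR's test. Of 21 tested members, 1 was called lower (Mpst) and none higher, with a median log2 fold change of -0.16 (0.08 without WT_CD 3). DESeq2 called 2 of the 21 lower, beside 117 lower among all tested genes. Cbs, which makes hydrogen sulfide from homocysteine and cysteine, had 2.0, 2.94 and 1.85 CPM in MPST KO_HFD_LNAME and 5.72, 3.80, 1.31 and 3.64 CPM in WT_CD (log2 fold change -0.66, SE 0.45, adjusted p = 0.606). Cth, the cystathionine gamma-lyase that is the usual vascular source of hydrogen sulfide, had 0.769, 1.64 and 1.79 CPM in MPST KO_HFD_LNAME and 2.62, 0.799, 2.34 and 1.40 CPM in WT_CD (log2 fold change -0.33, SE 0.51, adjusted p = 0.843). Both genes were low and their libraries overlapped. Tst, the related sulfurtransferase rhodanese, had a log2 fold change of -0.69 (adjusted p = 0.69).

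Tnip1 was, besides the knockout target Mpst, the called gene that set the treated knockout apart from both wild-type groups. It encodes ABIN1, an adaptor that binds ubiquitin chains and works with the deubiquitinase A20 to restrain NF-kB. Tnip1 had 49.4, 44.6 and 48.9 CPM in MPST KO_HFD_LNAME, 20.3, 21.6, 22.4 and 25.4 CPM in WT_HFD_LNAME, and 18.2, 17.3, 22.9 and 19.7 CPM in WT_CD. No knockout library came near a wild-type one, while the wild-type groups overlapped. The log2 fold change over WT_CD was 1.28 (SE 0.12, adjusted p = 0.00297), that over WT_HFD_LNAME was 1.08 (SE 0.12, adjusted p = 0.0148), and that of WT_HFD_LNAME over WT_CD was 0.20 (adjusted p = 0.447). Tnip1 and Mpst were the only genes called between MPST KO_HFD_LNAME and WT_HFD_LNAME (2 genes, 0.014%), 1 higher and 1 lower (0.00699% each). A predicted gene, Gm12230, overlaps Tnip1.

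Iqsec2 had a like order of groups. It encodes an exchange factor for the small GTPase ARF6 and is known mainly from neurons. It had 56.7, 68.0 and 51.9 CPM in MPST KO_HFD_LNAME, against 34.0, 28.1, 26.6 and 37.8 CPM in WT_HFD_LNAME and 37.8, 31.8, 28.5 and 30.9 CPM in WT_CD. The knockout libraries lay above all wild-type ones. The log2 fold change over WT_CD was 0.87 (SE 0.15, adjusted p = 0.0483), and that over WT_HFD_LNAME, 0.90, was not called (adjusted p = 0.523). The call over WT_CD was lost in 10 of 11 fits that left out 1 library.

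The list of NF-kB and inflammatory cytokine genes had 26 tested members, of which 2 were called higher and none lower. Its median log2 fold change was 0.42 (0.26 without MPST KO_HFD_LNAME 1), and 23 members were above 0. Among all tested genes 0.287% were called higher, and 6339 of 14303 were above 0. Vcam1, the endothelial adhesion molecule that holds monocytes and lymphocytes, was the other called member. It had 50.1, 60.1 and 64.7 CPM in MPST KO_HFD_LNAME, 44.7, 51.9, 43.3 and 44.3 CPM in WT_HFD_LNAME and 21.2, 34.5, 32.0 and 30.4 CPM in WT_CD. All treated libraries of either genotype lay above all chow libraries. The log2 fold change of MPST KO_HFD_LNAME over WT_CD was 0.98 (SE 0.16, adjusted p = 0.044), beside 0.64 (adjusted p = 0.0613) for WT_HFD_LNAME over WT_CD. The subunits and inhibitors of NF-kB had smaller values, none called: Nfkb1 0.26, Nfkb2 0.27, Rela 0.10, Nfkbia -0.36 and Tnfaip3, which encodes A20, 0.49. Il1b, a cytokine of activated macrophages, had a log2 fold change of 1.56 (adjusted p = 0.33).

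Ubd encodes FAT10, a ubiquitin-like protein that inflammatory cytokines induce. It had 13.5, 7.52 and 7.14 CPM in MPST KO_HFD_LNAME, 2.59, 3.29, 6.15 and 2.87 CPM in WT_HFD_LNAME and 0.119, 0.799, 1.03 and 1.40 CPM in WT_CD. The 3 groups did not overlap, with the treated wild type between the others. Relative to WT_CD it rose by a log2 fold change of 3.41 (SE 0.51, adjusted p = 0.0304). Cxcl10, a chemokine that draws T cells, had a log2 fold change of 3.73 (SE 0.68) and just missed the threshold (adjusted p = 0.0519).

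The promoters of Tnip1 and Ubd are shown because both genes rose and both hold a match to the kappaB consensus, the site NF-kB binds, in this window. Sequences are from RefSeq, build GRCm38.p6, from 250 bases before to 50 bases after the gene start; 37 of the 45 called genes had such an entry. Tnip1 lies on the minus strand (chr11:54962891-54963190) and Ubd on the plus strand (chr17:37193642-37193941). Capitals mark matches to the 10-letter textbook kappaB consensus, searched on both strands. In Tnip1 overlapping matches begin at -58, and in Ubd 1 match begins at -15.
Tnip1: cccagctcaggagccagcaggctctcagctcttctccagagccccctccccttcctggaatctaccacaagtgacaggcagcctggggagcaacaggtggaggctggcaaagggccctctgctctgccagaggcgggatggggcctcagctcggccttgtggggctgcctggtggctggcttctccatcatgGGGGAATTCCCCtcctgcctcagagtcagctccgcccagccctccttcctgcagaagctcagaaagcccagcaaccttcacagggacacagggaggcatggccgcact
Ubd: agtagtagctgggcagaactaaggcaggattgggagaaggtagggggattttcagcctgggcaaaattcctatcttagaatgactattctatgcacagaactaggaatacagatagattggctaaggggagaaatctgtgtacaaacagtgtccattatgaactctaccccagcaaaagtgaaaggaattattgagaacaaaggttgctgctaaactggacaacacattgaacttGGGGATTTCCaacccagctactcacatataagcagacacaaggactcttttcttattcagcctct
The consensus occurs in 8.46% of 32851 mouse promoters of this length, and in 12.7% of the tested genes that have one. Among called higher genes with a promoter, 4 of 34 held it: Tnip1, Ubd, She and Kcnn4. A match is a description of the letters and not a shown binding site.

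**Figure D2:**
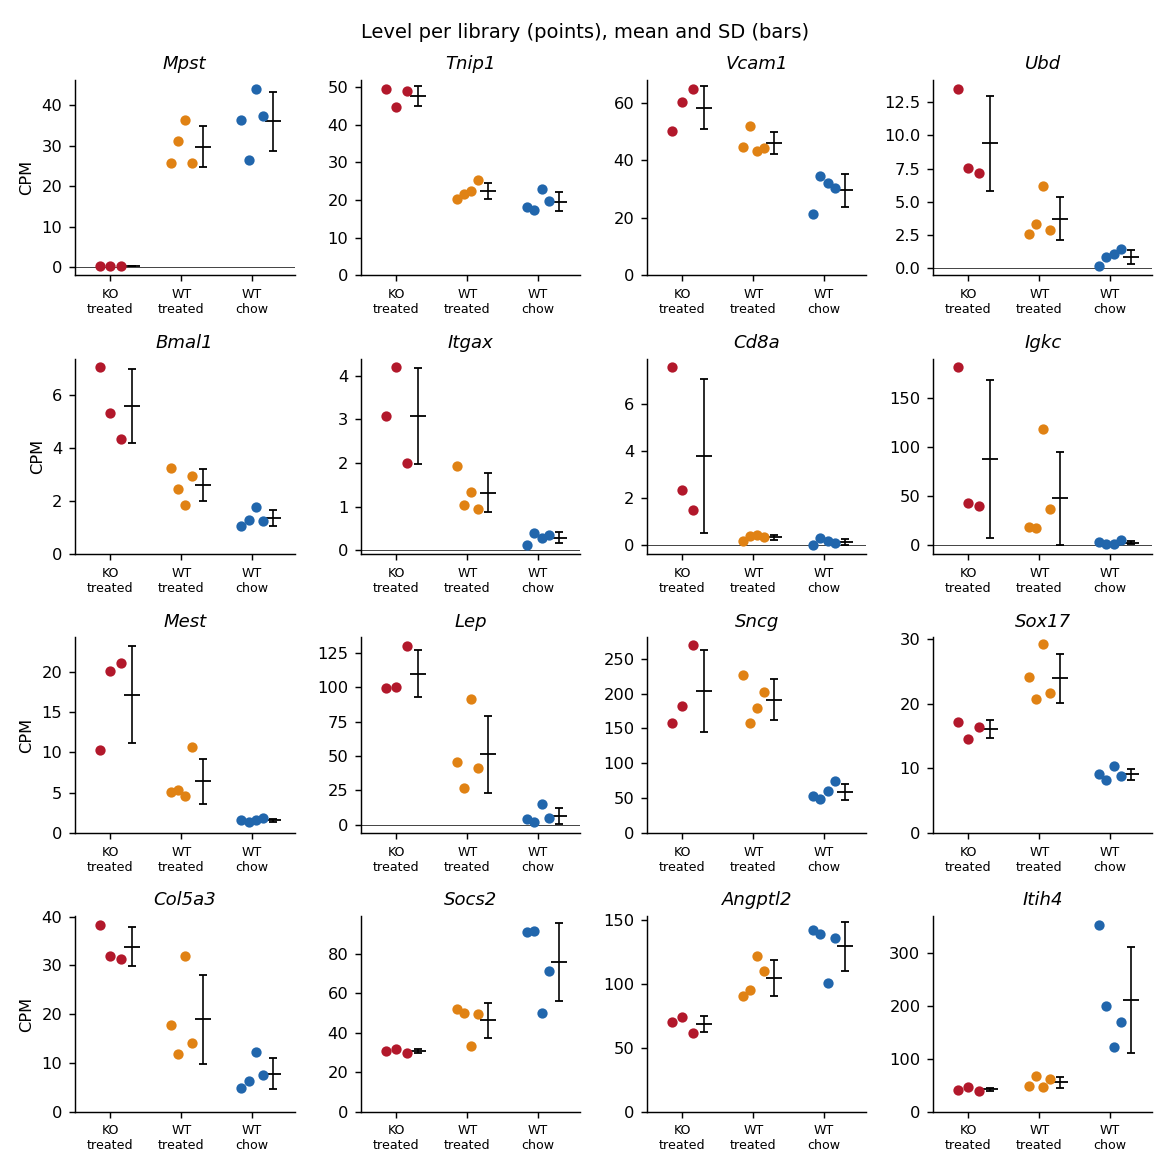
CPM (vertical, linear scale) of 16 called genes in each library of MPST KO_HFD_LNAME (KO treated), WT_HFD_LNAME (WT treated) and WT_CD (WT chow). Points are libraries, and bars give the mean and SD. For Tnip1 the treated knockout stands alone at 44.6 to 49.4 CPM, whereas for Sncg and Vcam1 both treated groups lie above chow.

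Several of the called higher genes are known from leukocytes. Itgax encodes CD11c, an integrin of dendritic cells and some macrophages. It had 3.08, 4.19 and 1.99 CPM in MPST KO_HFD_LNAME, 1.94, 1.03, 1.35 and 0.958 CPM in WT_HFD_LNAME and 0.119, 0.400, 0.281 and 0.350 CPM in WT_CD. The 3 groups did not overlap, and the log2 fold change over WT_CD was 3.35 (SE 0.43, adjusted p = 0.0161). It was the only called member of 11 tested genes of MHC class II and dendritic cells, 7 of which had enough counts in WT_CD alone. DESeq2 called 7 of the 11 higher, beside 450 higher among all tested genes. The MHC class II genes H2-Aa, H2-Ab1 and H2-Eb1, which present antigen to T helper cells, had log2 fold changes of 1.41, 1.54 and 1.49, and their regulator Ciita 2.21, none called. In bulk samples more cells of a type and more RNA per cell cannot be told apart.

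Other myeloid and general leukocyte genes rose as well. Mpeg1, which encodes the pore-forming perforin-2 of macrophages, had 27.4, 18.5 and 22.6 CPM in MPST KO_HFD_LNAME, 8.33, 11.9, 12.1 and 7.52 CPM in WT_HFD_LNAME and 4.29, 4.10, 8.79 and 8.60 CPM in WT_CD. The knockout libraries lay above all others (log2 fold change over WT_CD 1.81, SE 0.30, adjusted p = 0.0466). Adam8, a metalloprotease of leukocytes, had a log2 fold change of 2.24 (SE 0.30, adjusted p = 0.0213). Cd52, a lymphocyte surface glycoprotein, had 2.15 (SE 0.34, adjusted p = 0.0392). Rgs1, a regulator of G protein signalling in leukocytes, had 3.14 (SE 0.49, adjusted p = 0.0392). In WT_HFD_LNAME over WT_CD, Adam8 and Rgs1 were also called, with 1.41 (adjusted p = 0.0453) and 2.81 (adjusted p = 0.0269). Cd52 was not called there (0.65, adjusted p = 0.375). The list of macrophage and monocyte markers, however, had no called member among 24 tested and a median log2 fold change of 0.25. Its list score, the mean log2(CPM + 0.5) of its members, was 3.49, 3.41 and 3.93 in MPST KO_HFD_LNAME and 2.85, 2.90, 3.71 and 3.62 in WT_CD, so the groups overlapped; without MPST KO_HFD_LNAME 3 the median was 0.0046.

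Of 11 tested T and NK cell markers 3 were called higher (8 by DESeq2), with the highest values in MPST KO_HFD_LNAME 1. Among all 14303 tested genes 0.287% were called higher, and DESeq2 called 450 higher. Lck, the kinase that starts T cell receptor signalling, had 10.5, 3.11 and 3.36 CPM in MPST KO_HFD_LNAME, 1.05, 1.13, 1.60 and 0.752 CPM in WT_HFD_LNAME and 0.119, 0.400, 0.468 and 0.629 CPM in WT_CD (log2 fold change over WT_CD 3.70, SE 0.55, adjusted p = 0.0304). Cd8a, a coreceptor of cytotoxic T cells, had 7.53, 2.32 and 1.51 CPM in MPST KO_HFD_LNAME, 0.162, 0.376, 0.421 and 0.342 CPM in WT_HFD_LNAME and 0, 0.300, 0.187 and 0.0699 CPM in WT_CD (log2 fold change over WT_CD 4.66, SE 0.75, adjusted p = 0.0405). For both genes each knockout library lay above all wild-type ones. Tcf7, a transcription factor of naive and memory T cells, had a log2 fold change of 3.10 (SE 0.54, adjusted p = 0.0483); it overlaps Skp1. Without MPST KO_HFD_LNAME 1 the log2 fold changes were 2.89 for Lck (adjusted p = 0.105), 3.67 for Cd8a (adjusted p = 0.112) and 2.36 for Tcf7 (adjusted p = 0.146), and all 3 were also lost without MPST KO_HFD_LNAME 2, WT_CD 1, WT_CD 2 or WT_CD 4. The list has 24 genes, of which 13 had too few counts to be tested, and 1 of the tested genes had enough in WT_CD alone. The filter thus favours members that are high in treated libraries. No median is read from the tested members, and their calls and scores are given as description only. Their list scores were 2.72, 1.02 and 1.12 in MPST KO_HFD_LNAME, -0.23, 0.11, 0.23 and -0.03 in WT_HFD_LNAME and -0.31, -0.33, -0.14 and -0.14 in WT_CD.

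Among B and plasma cell genes, Igkc was higher in all treated libraries of both genotypes than in chow. Igkc, the constant region of the immunoglobulin kappa light chain, had 182, 42.7 and 39.8 CPM in MPST KO_HFD_LNAME, 18.4, 16.9, 118 and 36.2 CPM in WT_HFD_LNAME and 2.74, 0.700, 0.935 and 4.27 CPM in WT_CD. MPST KO_HFD_LNAME 1 and WT_HFD_LNAME 3 were the highest, and the treated groups overlapped. Igkc had a log2 fold change of 5.30 over WT_CD (SE 0.93, adjusted p = 0.0483) and 4.19 without MPST KO_HFD_LNAME 1 (adjusted p = 0.146). Ms4a1, a surface protein that marks B cells, ran from 0.396 to 6.61 CPM in MPST KO_HFD_LNAME and from 0.0999 to 0.187 CPM in WT_CD. Of 19 list members 12 were tested, and 1 had enough counts in WT_CD alone. The filter thus favours members that are high in treated libraries, and no median is read from the list. Whether lymphoid tissue attached to the vessel contributed to these values was not tested.

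**Figure D3:**
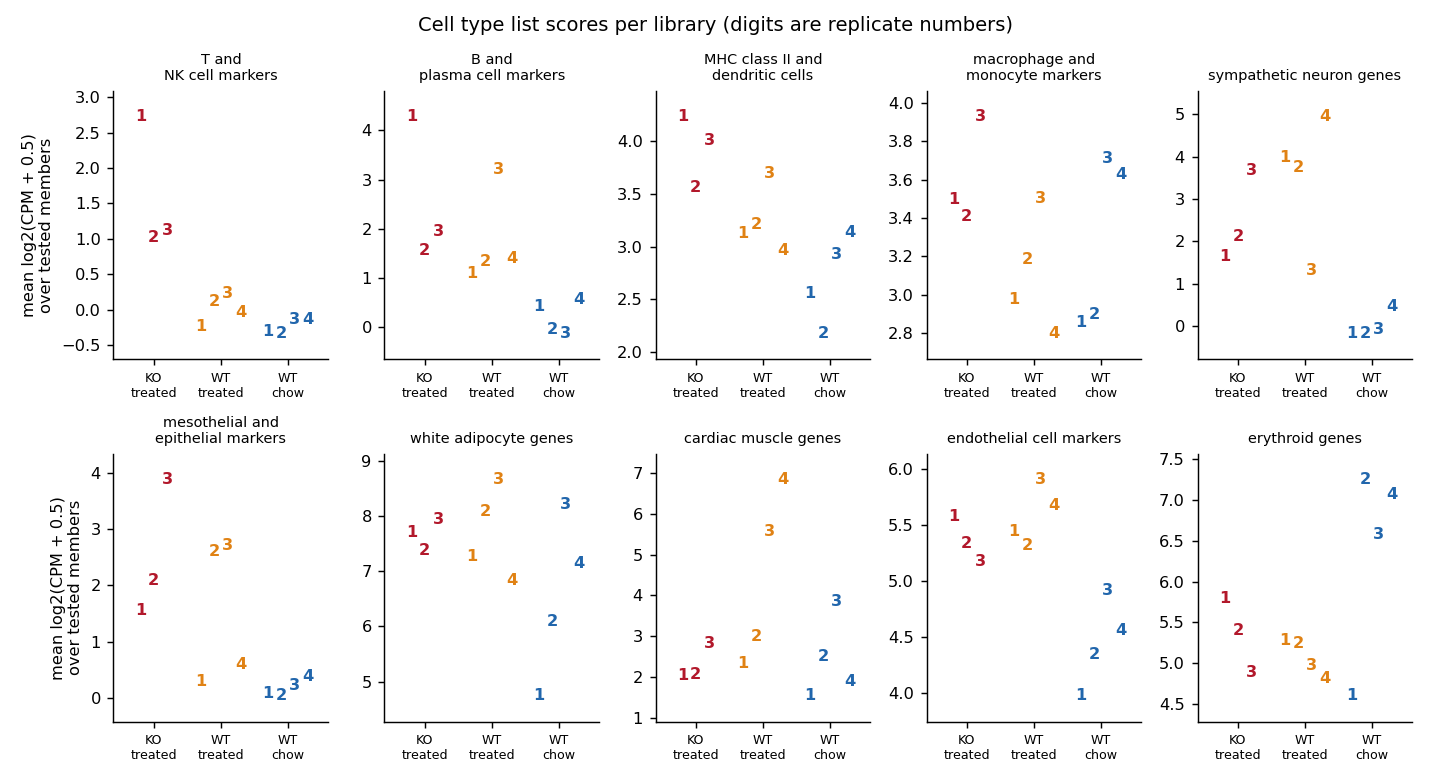
List scores, the mean log2(CPM + 0.5) over tested members (vertical), for 10 cell type lists in each library of MPST KO_HFD_LNAME, WT_HFD_LNAME and WT_CD; digits are replicate numbers and each panel has its own scale. MPST KO_HFD_LNAME 1 stands highest for T and B cell genes (2.72 and 4.27), MPST KO_HFD_LNAME 3 is the highest knockout library for mesothelial and sympathetic genes (3.88 and 3.68), and all endothelial scores of treated libraries lie above those of chow.

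Endothelial genes lay higher in the treated knockout as a list, with few single calls. All 32 tested endothelial markers had a log2 fold change above 0, with a median of 0.89, and for 17 of them the libraries did not overlap, where 7.86% of all tested genes did not overlap in that direction; 1 was called, and DESeq2 called 12. List scores were 5.57, 5.33 and 5.17 in MPST KO_HFD_LNAME, 5.44, 5.31, 5.91 and 5.67 in WT_HFD_LNAME and 3.97, 4.34, 4.92 and 4.56 in WT_CD. The treated groups overlapped, and both lay above chow. The chow libraries had the same order for endothelial and white adipocyte scores, lowest in WT_CD 1 and highest in WT_CD 3, and WT_CD 1 and 2 had the largest Rn45s shares (10.1% and 17.4%). Without both of these the endothelial median was 0.65. The part of fat and RNA quality in the list's values was not tested. Sox17, a transcription factor of arterial endothelium, was the called member: it had 17.2, 14.6 and 16.4 CPM in MPST KO_HFD_LNAME, 24.1, 20.7, 29.2 and 21.6 CPM in WT_HFD_LNAME and 9.06, 8.19, 10.3 and 8.74 CPM in WT_CD. The 3 groups did not overlap, and the treated wild type was highest. The log2 fold change over WT_CD was 0.82 (SE 0.15, adjusted p = 0.0483), beside 1.40 (SE 0.14, adjusted p = 0.00949) for WT_HFD_LNAME over WT_CD. Cdh5 and Pecam1, which join endothelial cells, had log2 fold changes of 1.24 (adjusted p = 0.18) and 0.51 (adjusted p = 0.55). Plxnd1, a semaphorin receptor of endothelium, had a log2 fold change of 1.26 (SE 0.22, adjusted p = 0.0483), and Slco2a1, a prostaglandin transporter, 1.47 (SE 0.24, adjusted p = 0.0466).

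Genes of NO and cyclic GMP signalling, the pathway that L-NAME acts on, gave no call among 28 tested, and DESeq2 called 3 higher. The median log2 fold change was -0.06, and it changed sign to 0.09 without WT_CD 1. For 8 members the knockout libraries lay wholly above chow and for none wholly below, beside 7.86% and 5.19% of all tested genes. List scores were 4.86, 4.97 and 4.81 in MPST KO_HFD_LNAME, 4.90, 5.0, 4.85 and 4.95 in WT_HFD_LNAME and 4.54, 4.55, 4.65 and 4.54 in WT_CD, so each treated library lay above chow by score while the median lay near that of all genes. Nos3, the endothelial NO synthase, had 46.9, 41.3 and 52.0 CPM in MPST KO_HFD_LNAME, 49.6, 38.0, 63.4 and 55.5 CPM in WT_HFD_LNAME and 7.15, 25.8, 28.7 and 27.6 CPM in WT_CD. Each treated library lay above each chow library, WT_CD 1 was far below the other chow libraries, and the log2 fold change of 1.06 was not called (SE 0.36, adjusted p = 0.233). Atg9b overlaps Nos3. Prkg2, a cyclic GMP-dependent kinase, had the lowest adjusted p of the list, 0.0519, with a log2 fold change of 2.67 (SE 0.48).

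Smooth muscle identity genes differed little. Of 22 contractile genes, 1 was called and the median log2 fold change was -0.07; Acta2 had -0.09, Tagln -0.12 and Myh11 -0.46, none called. The called member was Sncg, gamma-synuclein, with 158, 183 and 270 CPM in MPST KO_HFD_LNAME, 227, 157, 179 and 202 CPM in WT_HFD_LNAME and 52.4, 48.1, 59.8 and 74.3 CPM in WT_CD. All treated libraries lay above all chow libraries, and the treated groups overlapped. Sncg had a log2 fold change of 1.79 over WT_CD (SE 0.22, adjusted p = 0.0133) and 0.09 over WT_HFD_LNAME (adjusted p = 0.966). Sncg is also expressed in neurons and fat cells, and sympathetic genes are given beside it: their list scores were 1.65, 2.11 and 3.68 in MPST KO_HFD_LNAME, 3.98, 3.74, 1.31 and 4.94 in WT_HFD_LNAME and -0.16, -0.16, -0.07 and 0.46 in WT_CD. All 28 members were tested but only 5 had enough counts in WT_CD alone. None was called, whereas DESeq2 called 20 higher, beside 450 higher among all tested genes. Th, the rate-limiting enzyme of noradrenaline synthesis, held 548 counts over the 3 knockout libraries and 1 count over the 4 chow libraries. The ratio of 525 has a 95% counting interval of 93.9 to 20792, and the adjusted p was 0.0622. The part of nerve tissue in the Sncg values was not tested.

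Among matrix genes 1 of 22 collagens was called. Col5a3, a chain of fibril-forming collagen V, had 38.4, 31.9 and 31.3 CPM in MPST KO_HFD_LNAME, 17.7, 11.8, 32.0 and 14.1 CPM in WT_HFD_LNAME and 4.89, 6.40, 12.3 and 7.62 CPM in WT_CD. The log2 fold change over WT_CD was 2.11 (SE 0.36, adjusted p = 0.0475), and WT_HFD_LNAME 3 alone of its group reached the knockout level. The other collagens had a median close to that of all genes (list median -0.11), with Col1a1 at -0.24 and Col3a1 at -0.11. Fam20c, the Golgi kinase that phosphorylates secreted proteins, had 53.1, 51.2 and 55.9 CPM in MPST KO_HFD_LNAME, 40.8, 51.1, 44.9 and 42.6 CPM in WT_HFD_LNAME and 30.5, 29.3, 30.2 and 32.7 CPM in WT_CD (log2 fold change over WT_CD 0.80, SE 0.10, adjusted p = 0.0161). Its knockout and chow libraries were each tightly grouped.

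Of 25 white adipocyte genes 3 were called higher, Mest, Lep and Sfrp5, and the other 22 were not called. Among all tested genes 0.287% were called higher. Mest, an imprinted gene whose level follows fat cell enlargement, had 10.2, 20.1 and 21.1 CPM in MPST KO_HFD_LNAME, 5.10, 5.36, 4.55 and 10.6 CPM in WT_HFD_LNAME and 1.55, 1.30, 1.59 and 1.82 CPM in WT_CD. Its lowest treated library lay above every chow library (log2 fold change of MPST KO_HFD_LNAME over WT_CD 3.44, SE 0.36, adjusted p = 0.00394); Copg2 and Mir335 overlap it. Lep, the satiety hormone leptin, had 99.6, 100 and 130 CPM in MPST KO_HFD_LNAME, 45.5, 26.9, 91.5 and 41.1 CPM in WT_HFD_LNAME and 4.05, 1.70, 14.8 and 4.62 CPM in WT_CD. The 3 groups did not overlap (log2 fold change over WT_CD 4.12, SE 0.61, adjusted p = 0.0304). Sfrp5, a secreted Wnt inhibitor of fat cells, had a log2 fold change of 3.50 (SE 0.60, adjusted p = 0.0475). The list median was -0.03 (1.03 without WT_CD 3), and Adipoq, Plin1 and Fabp4 had 0.12, 0.17 and -0.36. Their list scores were 7.70, 7.37 and 7.94 in MPST KO_HFD_LNAME and 4.74, 6.08, 8.21 and 7.15 in WT_CD, so chow libraries varied widely in fat RNA. The part of residual fat in the Mest, Lep and Sfrp5 values was not tested.

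The clock gene Bmal1 rose. Its protein pairs with CLOCK to drive the daily cycle of gene expression, including that of the Per, Cry and Nr1d genes, which feed back on it. Bmal1 had 7.07, 5.32 and 4.33 CPM in MPST KO_HFD_LNAME, 3.24, 2.44, 1.85 and 2.94 CPM in WT_HFD_LNAME and 1.07, 1.30, 1.78 and 1.26 CPM in WT_CD. The 3 groups did not overlap, and the log2 fold change over WT_CD was 2.03 (SE 0.28, adjusted p = 0.0242). It was the single call among 22 clock genes, whose median was -0.23 (-0.03 without WT_CD 1). The repressors Cry1, Per2 and Per3 had -0.84 (adjusted p = 0.06), -0.78 and -0.81, the output gene Usp2 had -1.07, and Nfil3, a repressor of opposite phase to Dbp, had 0.99. The hour at which the vessels were taken is not given in the sources used here, and its part in these values was not tested. ROR nuclear receptors act on Bmal1 through response elements with the core AGGTCA, so its promoter is shown with that core in capitals, first base at 32 (RefSeq, GRCm38.p6, plus strand, chr7:113207261-113207560, 1 of 2 listed starts).
Bmal1: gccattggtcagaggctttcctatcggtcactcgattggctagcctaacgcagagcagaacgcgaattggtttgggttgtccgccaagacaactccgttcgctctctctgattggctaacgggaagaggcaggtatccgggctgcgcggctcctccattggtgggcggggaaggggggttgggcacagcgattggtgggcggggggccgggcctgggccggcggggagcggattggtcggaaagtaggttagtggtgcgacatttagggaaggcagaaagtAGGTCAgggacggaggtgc
The start shown was picked because it holds the core. The core, searched on both strands, occurs in 16.3% of all promoters and in 14.9% of tested genes that have one. Among called higher genes with a promoter, 7 of 34 held it. The match is a description of the letters and not a shown binding site.

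Besides Mpst, 3 genes fell. Itih4, an inter-alpha-trypsin inhibitor heavy chain found in plasma, had 40.8, 46.1 and 39.9 CPM in MPST KO_HFD_LNAME, 48.5, 67.3, 46.0 and 61.0 CPM in WT_HFD_LNAME and 353, 200, 123 and 168 CPM in WT_CD. Both treated groups lay below all chow libraries (log2 fold change of MPST KO_HFD_LNAME over WT_CD -2.32, SE 0.32, adjusted p = 0.0247). Socs2, an inhibitor of growth hormone signalling that the hormone itself induces, had 30.7, 31.7 and 29.9 CPM in MPST KO_HFD_LNAME, 52.0, 50.2, 33.1 and 49.8 CPM in WT_HFD_LNAME and 90.9, 91.8, 49.9 and 71.2 CPM in WT_CD (log2 fold change over WT_CD -1.30, SE 0.22, adjusted p = 0.0475). Angptl2, a secreted angiopoietin-like protein, had 70.0, 74.2 and 61.9 CPM in MPST KO_HFD_LNAME, 90.7, 95.5, 122 and 110 CPM in WT_HFD_LNAME and 142, 139, 101 and 136 CPM in WT_CD (log2 fold change over WT_CD -0.92, SE 0.16, adjusted p = 0.0475). Among all tested genes 5.19% had knockout libraries wholly below chow. For Socs2 and Angptl2 the knockout libraries lay below every wild-type library; neither was called over WT_HFD_LNAME (log2 fold changes -0.59 and -0.61). Predicted gene Gm33230 overlaps Socs2, and Ralgps1 overlaps Angptl2.

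The remaining called genes were all higher. Lhfpl2, a membrane protein of the tetraspan type, had the third lowest adjusted p, 0.00328, with 10.9, 14.8 and 15.3 CPM in MPST KO_HFD_LNAME, 9.47, 10.9, 10.5 and 10.8 CPM in WT_HFD_LNAME and 3.10, 2.0, 3.55 and 3.78 CPM in WT_CD (log2 fold change over WT_CD 2.13, SE 0.21). Gpm6a, a membrane glycoprotein of neurons and mesothelium, had a log2 fold change of 2.53 (SE 0.32, adjusted p = 0.0161). It was the only called mesothelial or epithelial marker of 13 tested, whereas DESeq2 called 10 higher, beside 450 higher among all tested genes. Of the 13, only 3 had enough counts in WT_CD alone. Msln, mesothelin, ran from 5.61 to 52.8 CPM in MPST KO_HFD_LNAME and from 0 to 0.281 CPM in WT_CD. Fabp7, a fatty acid binding protein of glia, had 2.38, 5.20 and 11.7 CPM in MPST KO_HFD_LNAME and 0.238, 0, 0.187 and 0.140 CPM in WT_CD (log2 fold change 5.44, SE 0.88, adjusted p = 0.0413). Kcnn4, a calcium-activated potassium channel of endothelium and leukocytes, had a log2 fold change of 1.62 (adjusted p = 0.0304). The others were Fam43a, Chn2, She, Arl4c, Sema4d, Ptk7, Ankrd33b, Wscd1, Rasgrf2, Meox1, Ttc9, Carmil2, Afap1l2 and Sdc3, with log2 fold changes between 1.05 for Afap1l2 and 2.63 for Carmil2.

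**Figure D4:**
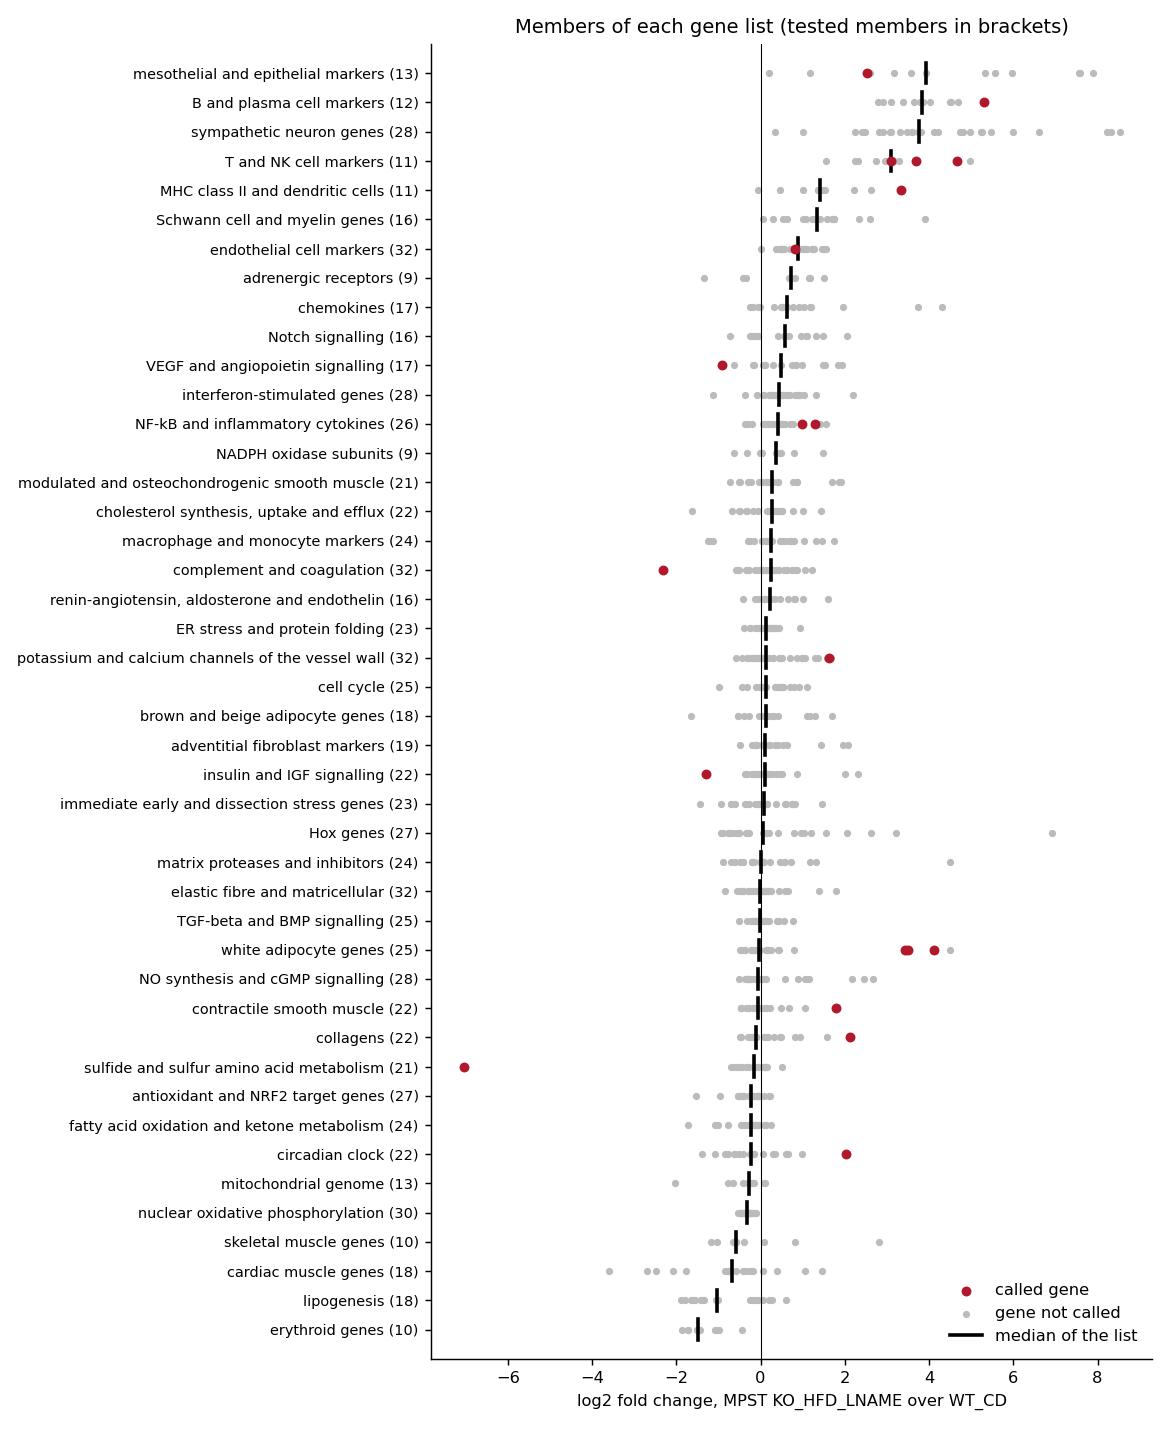
Log2 fold change of MPST KO_HFD_LNAME over WT_CD (horizontal) for each tested member of 44 gene lists, with list medians as black bars and called genes in red; lists are ordered by median, and brackets give tested members. The endothelial list lies wholly at or above 0 with a median of 0.89, and the 30 nuclear oxidative phosphorylation genes lie wholly below 0 with a median of -0.32, which was 0.35 without WT_CD 3; lists at the top hold many genes with too few counts in chow.

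The treated wild type differs from WT_CD in diet and inhibitor, and possibly age, but not in the labelled genotype. WT_HFD_LNAME against WT_CD called 212 genes (1.48%), 200 higher (1.4%) and 12 lower (0.0839%). Since the comparisons share libraries, their values are only set side by side. Among the 45 genes Kcnn4 had 1.62 in MPST KO_HFD_LNAME over WT_CD and 1.52 in WT_HFD_LNAME over WT_CD. She had 1.27 and 1.56, Rasgrf2 1.14 and 1.65, and Sfrp5 3.50 and 3.93, in the same order of comparisons. In contrast, Tcf7 had 3.10 and 0.68, Cd8a 4.66 and 1.16, Cd52 2.15 and 0.65, Mpeg1 1.81 and 0.61, and Angptl2 -0.92 and -0.31. Of these differences between the treated groups only those of Mpst and Tnip1 passed the test; for Cd8a the log2 fold change of MPST KO_HFD_LNAME over WT_HFD_LNAME was 3.50 (SE 0.66, adjusted p = 0.656) and for Tcf7 it was 2.43 (SE 0.51, adjusted p = 0.726).

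**Figure D5:**
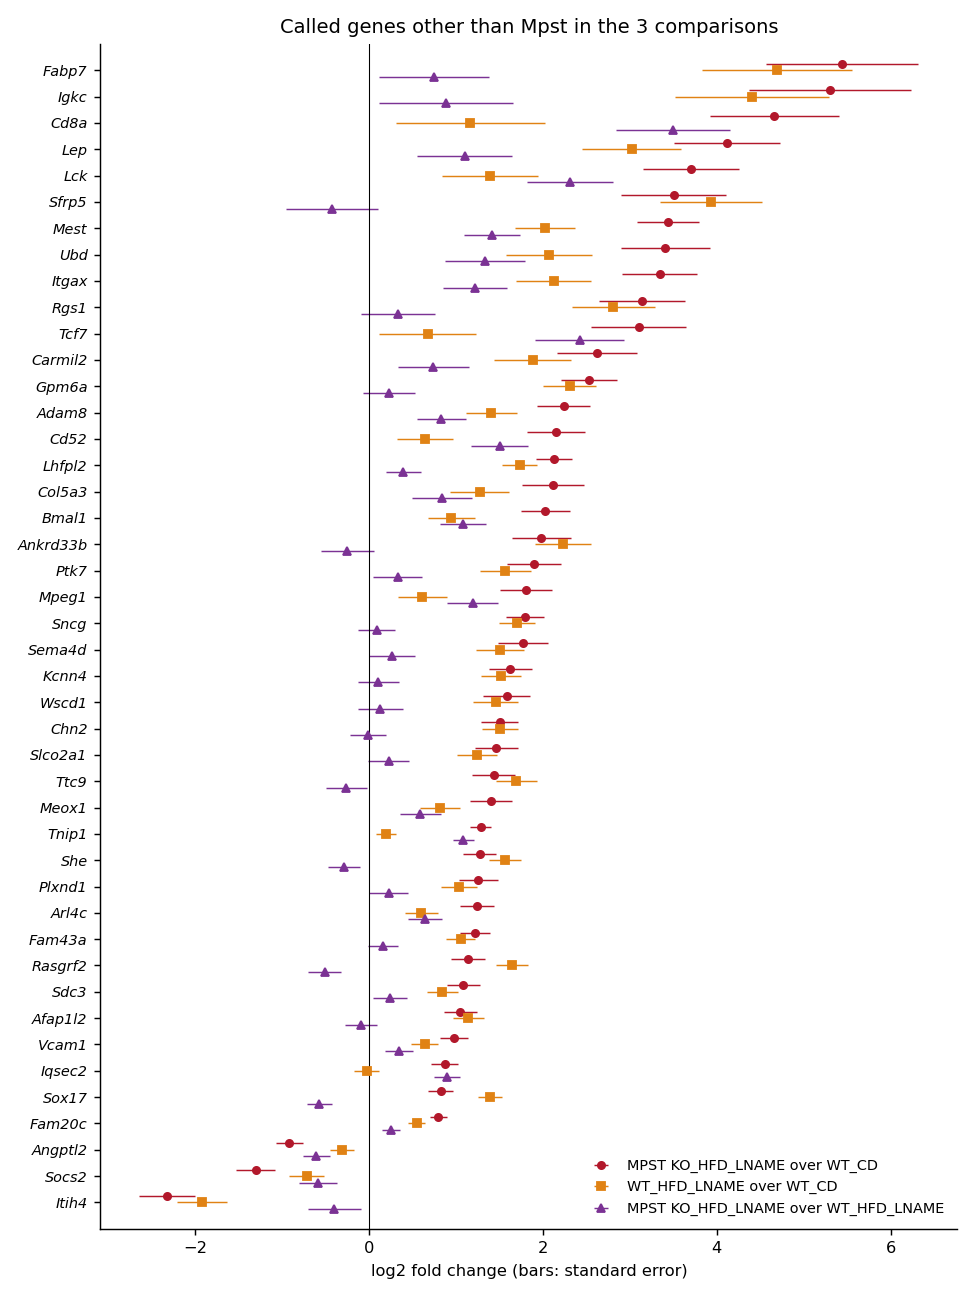
Log2 fold change with its standard error (horizontal) of the 44 called genes other than Mpst in MPST KO_HFD_LNAME over WT_CD (circles), WT_HFD_LNAME over WT_CD (squares) and MPST KO_HFD_LNAME over WT_HFD_LNAME (triangles). Tnip1 and Iqsec2 have values of 0.20 and -0.03 for WT_HFD_LNAME over WT_CD, while Sox17 has 1.40 there against 0.82 for the treated knockout; the comparisons share libraries.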

How the data were processed

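Per the labels' protocols, RNA of the whole aorta (arch, thoracic and abdominal) was extracted with TRIzol, and NEBNext Ultra II kits gave the libraries. The authors deposited read counts per gene as unnormalized whole numbers. Per the submitters' processing notes, the tools were Trimmomatic 0.39, HISAT2 2.2.1 (build GRCm38/mm10) and featureCounts 2.0.3. Strand setting, treatment of multiple alignments and annotation are not given in the sources used here, so reads of overlapping genes cannot be told apart and overlaps are named. Deposited comparison tables (DESeq2, Galaxy 2.11.40.7, per the submitters' processing notes) were not used here.

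The deposited counts were analysed in R 4.3.3 with edgeR 4.0.16: filterByExpr kept 14303 genes, TMM scaled the libraries, and 1 robust quasi-likelihood model was fitted to all 11 libraries, tested two-sided with Benjamini-Hochberg adjustment over all tested genes. Adjusted p-values are from this test unless another tool is named. Alternatives used limma 3.58.1 and DESeq2 1.42.0, RLE size factors, other filters and fits without single libraries. The model was tested on 1 simulated data set with 200 genes changed 4-fold. It recovered 155 of them and made 4 false calls. The simulation drew each gene independently from the model's own fitted spread. Variation that many genes share between libraries, such as that in fat RNA, was not in it. Its numbers therefore cannot tell how many of the real calls are false. Intervals cover counting error only. Positions are from RefSeq GRCm38.p6.

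Members and the 44 gene lists (1016 distinct genes found, 1 not) were chosen with earlier results of these data known. Named by rule were Mpst, Nos3, Cth, Cbs, the 12 called genes of largest change per direction (mean CPM of at least 1 in a compared group, no overlap, no predicted model), and in each list the 3 called members of smallest p or, with none, 1 member. The other called genes, and list members named for their role, were chosen after their values were seen.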

Additional observations from a re-analysis of the deposited data

Results flagged for a closer look

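Among 89 sets of 4 libraries checked (called genes and list scores), 3 had 1 library far from the others; chance alone flags about 1 in 20. Angptl2 had 101 CPM in WT_CD 3, against 136 to 142 CPM in the other chow libraries, so the chow library nearest to MPST KO_HFD_LNAME stood apart. The score of NO and cyclic GMP genes was 4.65 in WT_CD 3, against 4.54 to 4.55 in the other chow libraries. The score of sympathetic neuron genes was 0.46 in WT_CD 4, against -0.16 to -0.07 in the other chow libraries.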

How the results depend on the processing

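The counts of called genes depended strongly on the processing. The 45 called genes kept their sign in all 21 alternatives. Since the knockout and chow libraries of all 45 did not overlap in CPM, the alternatives could hardly change a sign. Against 41 higher and 4 lower genes, the counts were 450 and 117 with DESeq2, 11 and 2 with limma voom, 26 higher without a low-count filter, 2 and 1 with only the 7 compared libraries, and 2 and 2 without both WT_CD 1 and 2. They were 3 and 1 at an adjusted p under 0.01, and 196 and 30 at an adjusted p under 0.1. Leaving out each library in turn gave 3 to 93 higher and 1 to 16 lower genes. RLE size factors (39 and 4), a CPM filter (41 and 4) and leaving out Rn45s and mitochondrial counts (57 and 6) changed less. Only Mpst and Tnip1 were called in all 21 alternatives, with Lhfpl2 and Mest in 20. List medians were less stable: leaving out 1 library changed the sign of 16 of 44, and 9 changed sign without WT_CD 3, among them nuclear oxidative phosphorylation (0.35) and white adipocyte genes (1.03). Without both WT_CD 1 and 2 the median of collagens was 0.33 and that of NO and cyclic GMP genes 0.28, while clock genes had -0.04. The cause of these shifts was not tested. Runs that left out a library also had fewer libraries.

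With the replicate number as a block, 12 genes were called higher and 1 lower. Same-numbered libraries of MPST KO_HFD_LNAME and WT_CD correlated at -0.12 to 0.30 over 3 pairs, and those of all groups at -0.23 to 0.59 over 10 pairs. So few pairs cannot decide whether the numbers pair the samples. The fit with the block was not compared with the fit without it. Sequencing depth limits low genes: 3 counts are the floor. Cd8a, Fabp7 and Th, among others, rest on few counts in WT_CD. Over WT_CD 1 to 4, Itgax had 1, 4, 3 and 5 counts and Lck 1, 4, 5 and 9. Rgs1 had 1, 3, 5 and 9 there, and Tcf7 3, 4, 6 and 9. Ubd had 1 count in WT_CD 1. Mpst had 3, 5 and 4 counts in MPST KO_HFD_LNAME 1 to 3.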

Other observations

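Genes of energy metabolism held no call, and their list medians depended on WT_CD 3, the chow library highest for white adipocyte genes. All 30 tested nuclear genes of oxidative phosphorylation, the respiratory chain, had a log2 fold change of MPST KO_HFD_LNAME over WT_CD below 0, with a median of -0.32, beside -0.04 for all tested genes, but without WT_CD 3 the median was 0.35. Their list scores were 8.43, 7.67 and 8.30 in MPST KO_HFD_LNAME and 6.96, 7.96, 9.53 and 8.30 in WT_CD, so the groups overlapped. Fatty acid synthesis genes had a median of -1.04 over 18 tested members (-0.28 without WT_CD 3), with Acss2 at -1.90, Acly, which makes cytosolic acetyl-CoA, at -1.63, and Fasn at -1.41. List scores of lipogenesis were 7.31, 6.35 and 6.68 in MPST KO_HFD_LNAME and 6.04, 7.10, 8.56 and 7.36 in WT_CD, so the groups overlapped, and WT_CD 3 was highest, as it was for white adipocyte genes. Antioxidant and NRF2 target genes had a median of -0.22 over 27 tested members (-0.04 without WT_CD 3).

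Erythroid genes had a median of -1.48 over 10 tested members, all below 0 and none called. Among all 14303 tested genes 6339 were above 0 and 7964 below. Hba-a1, a chain of haemoglobin, ran from 310 to 745 CPM in MPST KO_HFD_LNAME and from 254 to 2080 CPM in WT_CD, and WT_CD 1 had a lower erythroid score (4.60) than any knockout library (4.88 to 5.79). Interferon-stimulated genes had a median of 0.45 over 28 tested members, 25 of them above 0 and none called, with Mx1 at 2.19 (adjusted p = 0.0942) and Isg15 at 0.05. Notch genes had a median of 0.57 over 16 tested members; Dll1, a Notch ligand, had 11.5, 10.5 and 9.0 CPM in MPST KO_HFD_LNAME and 1.19, 1.40, 4.12 and 3.08 CPM in WT_CD (log2 fold change 2.05, SE 0.39, adjusted p = 0.0579).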
